A study of Mus musculus with 9 samples.

Results

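The connexins Gja1, Gjc1 and Gjb2, the pannexins Panx1 and Panx3 and the cadherins Cdh2, Cdh11 and Cdh13 were followed through osteoblast differentiation. These 8 genes, out of 40548 in the deposited tables, were taken by name as contact and channel genes of bone cells, and all 8 passed the filter on low values. The cells were primary calvarial cells from C57BL/6 mice (C57BL/6J in the methods) at postnatal day 2 to 3 by the labels. The methods give a wider range of ages. Such cells are digested out of the skull bones of pups and include the precursors of osteoblasts. They were grown to confluency and harvested undifferentiated on day 0, or after 4 or 7 days in mineralization medium, a medium with β-glycerol phosphate and ascorbic acid. There were 3 libraries per stage, described in the study as biological replicates, and ribosomal RNA was depleted from total RNA before sequencing. All 9 libraries shared the strain and the tissue, and the labels name no genetic alteration in any of them. The methods name wild-type or ColI-GFP pups of both sexes and do not say which were sequenced. Cells were lifted with trypsin, and mineralized cells were first treated with collagenase I, so that effects of stage and of dissociation cannot be told apart. In these bulk samples, fewer cells of a type and less RNA per cell also cannot be told apart.

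Connexins assemble in the plasma membrane into hemichannels, and the hemichannels of neighbouring cells dock to form gap junctions through which ions and small molecules pass. Pannexins have a similar layout in the membrane without sharing their ancestry, and they work mainly as large-pore channels of single membranes, for example in the release of ATP. Classical cadherins join cells by calcium-dependent binding of their outer domains and are tied inside the cell to catenins and actin. Gja1 encodes connexin 43, the main gap junction protein of osteoblasts and osteocytes, and Cdh11 and Cdh2 encode the osteoblast cadherin and N-cadherin.

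The pannexin and connexin pairs whose levels are compared directly within a library are shown by their coding sequence, to make visible how alike they are to a read counter. The coding sequences of Cdh11 and Cdh2, also compared within a library, were not aligned. Over 1150 aligned coding bases, Panx3 and Panx1 were identical at 55.6%, with no identical run longer than 10 bases. The most similar 60 coding bases, read 5′ to 3′ on the strand of the gene, lie within a single exon of each gene, span coding bases 72 to 131 in both, and are given with capitals where the partner has the same base, at 45 of the 60 positions.
Panx3, chr9:37668925-37668984, GRCm38, reverse strand: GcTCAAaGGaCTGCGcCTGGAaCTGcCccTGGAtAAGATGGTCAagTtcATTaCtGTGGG
Panx1, chr9:15044907-15044966, GRCm38, reverse strand: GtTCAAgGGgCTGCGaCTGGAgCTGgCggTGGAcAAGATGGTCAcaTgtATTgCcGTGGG

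Gja1 and Gjc1 were identical at 58.5% of 1075 aligned coding bases, with no identical run longer than 17 bases. Their most similar 60 bases, again in a single exon of each gene, match at 46 positions and cover coding bases 175 to 234 of Gja1 and 172 to 231 of Gjc1.
Gja1, chr10:56387721-56387780, GRCm38, forward strand: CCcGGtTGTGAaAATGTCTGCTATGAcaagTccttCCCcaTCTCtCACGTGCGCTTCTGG
Gjc1, chr11:102800945-102801004, GRCm38, reverse strand: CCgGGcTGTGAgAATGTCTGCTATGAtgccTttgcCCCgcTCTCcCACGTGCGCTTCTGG

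On GRCm38 the pannexin genes lie on chromosome 9, Panx1 at 15002128 to 15045478 and Panx3 at 37659902 to 37669235. Gja1 lies on chromosome 10 at 56377330 to 56402513, Gjc1 on chromosome 11 at 102799579 to 102819700 and Gjb2 on chromosome 14 at 57098600 to 57104702. Cdh11 and Cdh13 share chromosome 8, at 102632095 to 102785642 and 118283733 to 119324921, and Cdh2 lies on chromosome 18 at 16588877 to 16809246. All 8 are annotated as protein-coding. None of them shared exonic bases with another annotated gene in GENCODE M21. The share of their 50-base transcript stretches that also occurred in transcripts of other genes was 0% for Gjb2, Panx1, Panx3 and Cdh2, and it was highest for Cdh11, at 2.07%.

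Levels are given as RPKM, the reads on a gene scaled by a gene length and by the reads of the library. The length that the deposited CPM and RPKM imply equals the merged exons of GENCODE M21 for Gjc1, Gjb2 and Cdh2 and is within 1% of it for Cdh13, but it is 30.3% of them for Gja1 (3105 of 10257 bases), 47.3% for Cdh11, 49.7% for Panx1 and 77.4% for Panx3. Levels, ranks and shares compared between genes therefore depend on the length used, and differences of 1 gene between stages do not. Day 7 was tested against day 0 with limma on log2(CPM + 0.5), where CPM are reads scaled to the library total without gene length, and all adjusted p values of this test are Benjamini-Hochberg values over the 12712 genes tested, called at 0.05. The day 4 libraries came in separate tables and had greater depth (32820610 to 37306090 reads on genes, against 7741204 to 15622755 in the other 6 libraries). Day 4 therefore entered no test and was compared by whether the libraries overlapped. Effects of stage and of the separate tables cannot be told apart at day 4. The 5 rows that overlap ribosomal RNA took 18.5% of the reads in day 0 replicate 3 and 11.6% in day 7 replicate 2, against 0.579% to 5.11% in the other 7 libraries, and without either of these libraries the calls of the 8 genes were as reported. The state of the cells was checked with 9 osteoblast markers, of which 8 were higher at day 7, as were 12.6% of all genes tested. The exception was Runx2, an early transcription factor of the lineage (log2 difference 0.23, limma adjusted p = 0.268). It was at 8.06 ± 0.422 RPKM (SD, n = 3) on day 0 and 9.47 ± 0.674 RPKM (SD, n = 3) on day 7. Each of its day 7 libraries nevertheless lay above each of its day 0 libraries. On day 0, Bglap had 3, 5 and 3 reads and Dmp1 had 6, 5 and 6. Both of these markers passed the filter on low values through their day 7 levels, so the count of higher markers depends in part on the filter.

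Panx3 rose from the lowest-expressed pannexin of the pair to one of the most abundant genes in the set, whereas Panx1 fell. Cdh2 and Cdh13 also rose, and Gjc1, Gjb2 and Cdh11 fell together with Panx1. Thus 3 of the 8 genes were called higher and 4 lower at day 7, where 12.6% of all genes tested were called higher and 18.6% lower, that is 31.2% in either direction. Gja1 was the gene that did not pass the test. An exact two-sided permutation test of each single gene on the same scale gave p = 0.1 for every called gene. That is the smallest p that 3 libraries against 3 can give, and for Gja1 the permutation p was 0.4. The median log2 difference was -0.28 over the 8 genes and -0.11 over all genes tested.

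**Figure D1:**
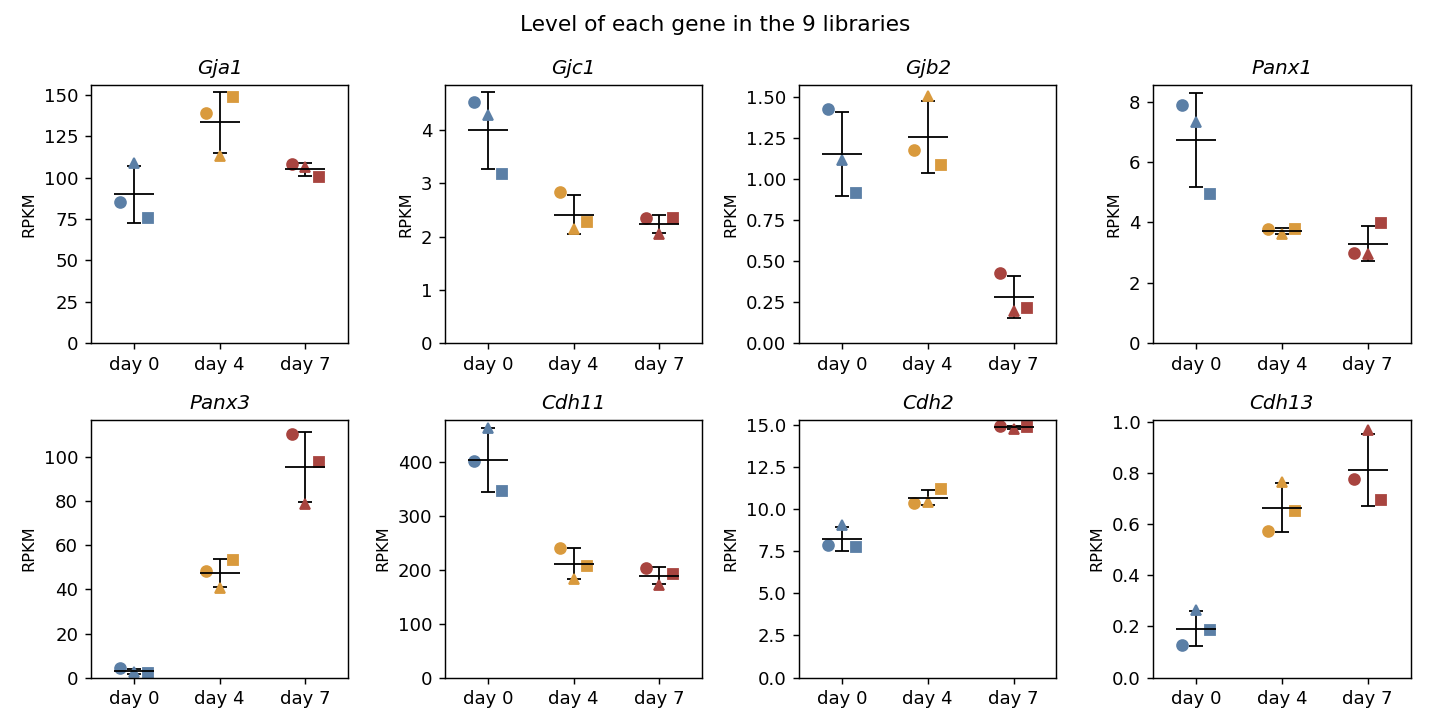
RPKM of the 8 genes in each library (points) at day 0, day 4 and day 7, with the mean of the 3 libraries of each stage. Panx3 climbs at each step to 95.5 RPKM, Cdh2 and Cdh13 climb within a narrower range, and Cdh11, Panx1 and Gjc1 lie lower at day 4 and day 7 than at day 0.

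Panx3 encodes a pannexin known from skin, cartilage and bone. It was at 4.26, 2.52 and 1.94 RPKM in the day 0 libraries, at 48.2, 40.6 and 53.1 RPKM on day 4, and at 110.3, 78.8 and 97.5 RPKM on day 7. The 3 stages did not overlap at either step. The means were 2.91 ± 1.21, 47.3 ± 6.33 and 95.5 ± 15.9 RPKM (SD, n = 3 each), which is 16.3-fold between day 0 and day 4, 2.02-fold between day 4 and day 7, and 32.9-fold in all. On the log2 CPM scale the rise from day 0 to day 7 was 5.01 (SE 0.19, limma adjusted p = 2.49e-27). The day 0 values rested on 159, 80 and 40 reads and the day 7 values on 4009, 2237 and 4054 reads.

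Panx1, the widely expressed pannexin that releases ATP, moved the other way. Its levels were 7.88, 7.34 and 4.95 RPKM on day 0, 3.77, 3.61 and 3.78 RPKM on day 4, and 2.98, 2.94 and 3.97 RPKM on day 7. Every day 0 library lay above every later one, and day 4 and day 7 overlapped. Between day 0 (6.72 ± 1.55 RPKM, SD, n = 3) and day 7 (3.30 ± 0.585 RPKM, SD, n = 3), Panx1 fell by 0.98 on the log2 CPM scale (SE 0.19, limma adjusted p = 7.04e-05). Its lowest day 0 value came from replicate 3, and without that library the difference was -1.18. Panx2, the remaining pannexin, had means of 0.122 RPKM or less at each stage and was not tested.

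The opposite movement of the pair can be read within each library, where the scaling of the libraries has no part. The ratio of Panx3 to Panx1 RPKM was 0.541, 0.343 and 0.392 on day 0, 12.8, 11.2 and 14 on day 4, and 37.0, 26.8 and 24.6 on day 7. In each day 0 library Panx1 exceeded Panx3, and in each later library Panx3 exceeded Panx1. The geometric mean of the ratio was 69.5-fold higher on day 7 than on day 0 (log2 difference 6.12, exact two-sided permutation p = 0.1, adjusted over 3 ratios 0.1), which is the smallest p that 3 libraries against 3 can give. Panx3 accounted for 29.2% ± 5.03 of the summed pannexin RPKM on day 0, 92.5% ± 0.872 on day 4 and 96.5% ± 0.710 on day 7 (SD, n = 3 each). With the M21 lengths the ratio was 0.844, 0.534 and 0.611 on day 0 and at least 17.5 in the later libraries.

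Gja1 was by far the most abundant connexin at each stage, and its level peaked on day 4 in these tables. It was at 85.1, 109 and 75.6 RPKM on day 0, at 139, 113 and 149 RPKM on day 4, and at 108, 106 and 101 RPKM on day 7. All day 4 libraries lay above those of both other stages, and day 0 and day 7 overlapped. The margin was narrow, since the lowest day 4 library was at 113 RPKM and the highest day 0 library at 109 RPKM. From day 0 (89.9 ± 17.3 RPKM, SD, n = 3) to day 7 (105 ± 4.01 RPKM, SD, n = 3) the log2 CPM difference was 0.24, with a 95% confidence interval from -0.08 to 0.56 (SE 0.16, limma adjusted p = 0.260). The difference was 0.12 without day 0 replicate 3, and it was 0.35 relative to the median of all genes tested. The call changed with the processing. With median-of-ratios factors the difference was also 0.35 and passed the test (limma adjusted p = 0.0179). It also passed with the 3 count methods run on the recovered reads, which differ in model as well as in scaling. Without the rows that overlap ribosomal RNA the difference was 0.16 and did not pass (limma adjusted p = 0.238). The adjusted p over all alternatives ranged from 0.00332 to 0.458.

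Gjc1 encodes connexin 45, which forms channels of low conductance and can mix with connexin 43. It was at 4.53, 4.28 and 3.17 RPKM on day 0, at 2.83, 2.14 and 2.27 RPKM on day 4, and at 2.34, 2.04 and 2.34 RPKM on day 7. The step lay between day 0 and day 4, without overlap, and the later stages overlapped. The fall from day 0 (4.00 ± 0.722 RPKM, SD, n = 3) to day 7 (2.24 ± 0.174 RPKM, SD, n = 3) was -0.79 on the log2 CPM scale (SE 0.18, limma adjusted p = 6.49e-04).

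Gjb2 encodes connexin 26, best known from the inner ear and epithelia, and was the only one of the 8 genes whose day 4 level overlapped that of day 0. It was at 1.42, 1.11 and 0.912 RPKM on day 0, at 1.18, 1.5 and 1.08 RPKM on day 4, and at 0.426, 0.195 and 0.213 RPKM on day 7. Only the day 7 libraries stood apart, below all others. The log2 CPM difference from day 0 to day 7 was -1.50 (SE 0.27, limma adjusted p = 1.91e-05). Few reads stood behind it, with 48, 32 and 17 on day 0 and 14, 5 and 8 on day 7. Its mean over the 6 tested libraries was 1.72 CPM, and it passed the filter at a mean of 1 through its day 0 level.

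Within each library, Gja1 was also set against Gjc1. The ratio of Gja1 to Gjc1 RPKM was 18.8, 25.5 and 23.8 on day 0, 49.1, 52.8 and 65.6 on day 4, and 46.3, 52.2 and 43.0 on day 7. All 6 later libraries lay above the day 0 libraries, and day 4 and day 7 overlapped. The geometric mean was 2.09-fold higher on day 7 than on day 0 (log2 difference 1.06, exact two-sided permutation p = 0.1, the smallest possible, adjusted over 3 ratios 0.1). Because Gja1 was so abundant, its share of the summed connexin RPKM moved little, from 93.3% ± 1.69 on day 0 to 95.6% ± 0.0709 on day 7, while the share of Gjc1 went from 4.17% ± 0.614 to 2.04% ± 0.195 (SD, n = 3 each). With the M21 lengths the share of Gja1 was 81.1% on day 0 and 86.9% on day 7, and that of Gjc1 11.9% and 6.13%.

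**Figure D2:**
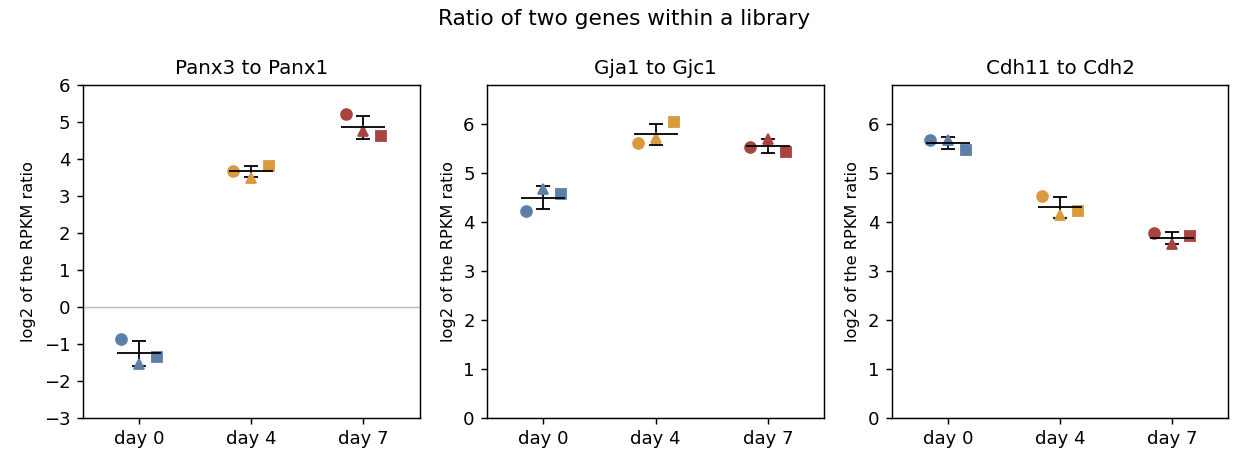
Ratios of RPKM within each library (points, log axis) for Panx3 to Panx1, Gja1 to Gjc1 and Cdh11 to Cdh2 at day 0, day 4 and day 7, with the geometric mean of each stage. The Panx3 to Panx1 ratio passes from below 1 to a geometric mean of 29.0, the Gja1 to Gjc1 ratio settles after day 0, and the Cdh11 to Cdh2 ratio falls at each step.

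None of the 17 other connexins reached the filter for testing, and 3 of them were at 0 in all 9 libraries.

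Cdh11 had the highest RPKM of the set at every stage, although it fell. It was at 402, 464 and 346 RPKM on day 0, at 242, 184 and 208 RPKM on day 4, and at 203, 172 and 193 RPKM on day 7. All later libraries lay below those of day 0, and day 4 and day 7 overlapped. The mean went from 404 ± 59.2 to 189 ± 16 RPKM (SD, n = 3 each), a ratio of 0.469, and the log2 CPM difference was -1.09 (SE 0.17, limma adjusted p = 1.09e-06).

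Cdh2 rose at both steps with little spread among the libraries. It was at 7.89, 9.04 and 7.76 RPKM on day 0, at 10.4, 10.4 and 11.2 RPKM on day 4, and at 14.9, 14.8 and 14.8 RPKM on day 7. No 2 stages overlapped. The mean rose 1.80-fold from 8.23 ± 0.703 to 14.8 ± 0.0817 RPKM (SD, n = 3 each), and the log2 CPM difference was 0.85 (SE 0.15, limma adjusted p = 1.48e-05).

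Cdh13 encodes T-cadherin, which is held to the membrane by a lipid anchor, lacks the cytoplasmic tail that binds catenins, and is a receptor for adiponectin. It was the gene of lowest level on days 0 and 4, at 0.128, 0.263 and 0.185 RPKM on day 0, 0.574, 0.764 and 0.652 RPKM on day 4, and 0.775, 0.966 and 0.695 RPKM on day 7. All later libraries lay above those of day 0, and day 4 and day 7 overlapped. The mean RPKM was 4.23-fold higher on day 7 than on day 0, and the log2 CPM difference was 1.88 (SE 0.23, limma adjusted p = 4.13e-09), from 20, 35 and 16 reads on day 0 and 118, 115 and 121 reads on day 7. On the RPKM scale, where the pseudocount of 0.5 exceeds the day 0 level, the difference was 0.92 and still passed the test.

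The 2 abundant classical cadherins of the set thus moved in opposite directions. The ratio of Cdh11 to Cdh2 RPKM was 50.9, 51.4 and 44.6 on day 0, 23.3, 17.7 and 18.6 on day 4, and 13.6, 11.6 and 13.0 on day 7. It was lower after each step without overlap, and the log2 difference between day 7 and day 0 was -1.94 (exact two-sided permutation p = 0.1, the smallest possible, adjusted over 3 ratios 0.1). Cdh11 still supplied 85.2% ± 0.788 of the summed cadherin RPKM on day 7, against 93.2% ± 0.863 on day 0, and the share of Cdh2 went from 1.91% ± 0.137 to 6.70% ± 0.486 (SD, n = 3 each). With the M21 lengths Cdh11 supplied 87.7% on day 0 and 74.3% on day 7, and Cdh2 3.79% and 12.3%.

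Of the 20 other classical and related cadherins, 6 were tested, of which 1 was higher and 1 lower. Over all genes tested, 12.6% were higher and 18.6% lower. Cdh3, which encodes P-cadherin, had the highest level among them, at 17.3 ± 1.10 RPKM on day 0 and 14.2 ± 0.607 RPKM on day 7 (SD, n = 3 each; log2 difference -0.28, limma adjusted p = 0.167). Cdh1, the epithelial cadherin, rose by 1.22 on the log2 CPM scale (SE 0.29, limma adjusted p = 8.46e-04). Its level was 0.0944 ± 0.0607 RPKM on day 0 and 0.357 ± 0.0736 RPKM on day 7 (SD, n = 3 each). This rested on 4, 9 and 2 reads on day 0 and 22, 14 and 31 on day 7. At a mean of 1.03 CPM, Cdh1 passed the filter through its day 7 level. Cdh24 fell by 0.87 on the same scale (limma adjusted p = 0.00281), from 1.79 ± 0.342 to 0.892 ± 0.149 RPKM (SD, n = 3 each). The median log2 difference of the 6 was -0.20, against -0.11 over all genes tested.

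**Figure D3:**
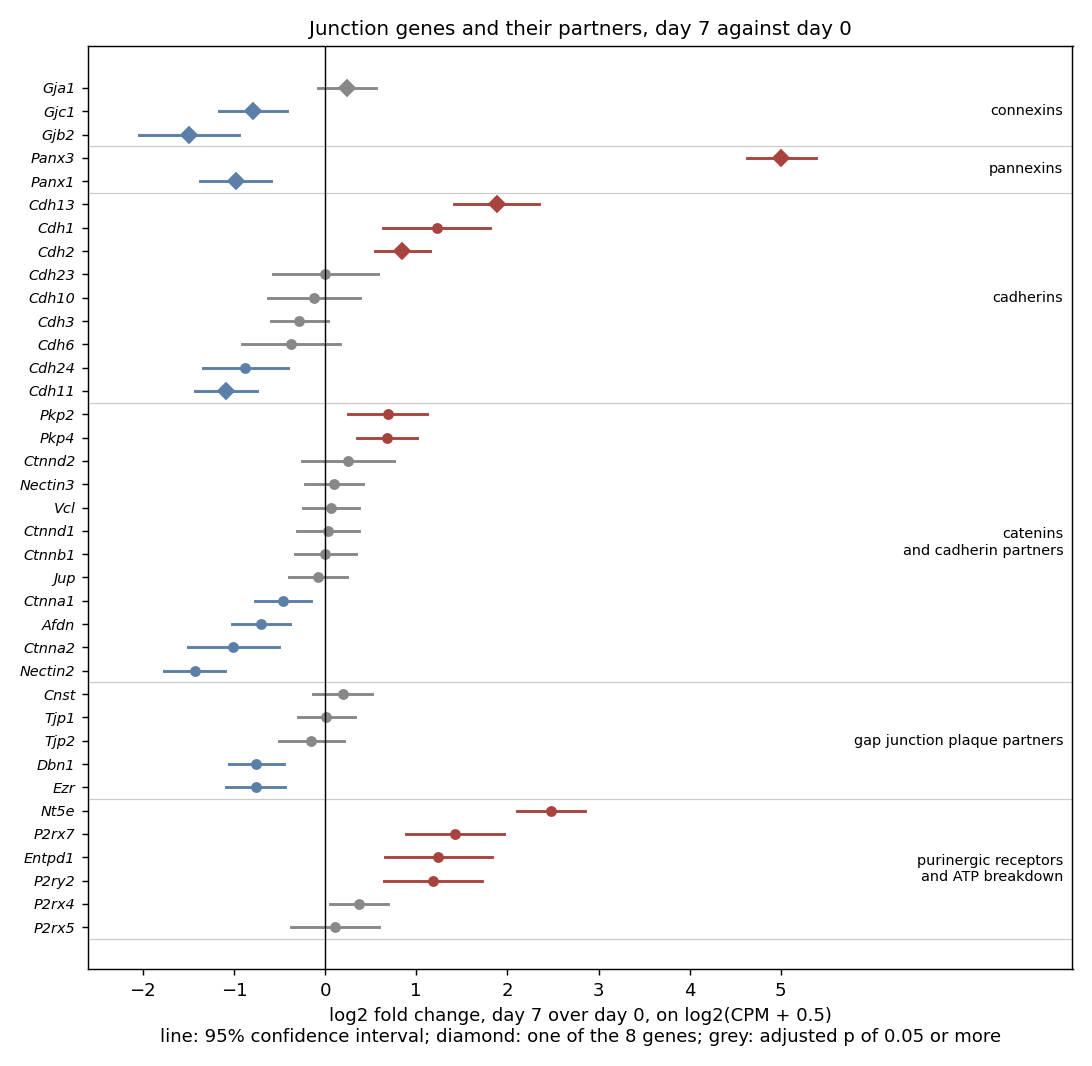
Log2 CPM difference between day 7 and day 0 for the tested connexins, pannexins, cadherins, their partners, and nucleotide receptors and enzymes (points). Bars are 95% confidence intervals, and diamonds mark the 8 genes. The median of all genes tested was -0.11. Among the 8 genes, the intervals of Panx3, Cdh13 and Cdh2 lie above 0. Those of Gjc1, Panx1, Cdh11 and Gjb2 lie below 0, and that of Gja1 spans it.

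When the stages were compared by overlap of RPKM, the 8 genes differed in the steps at which they moved, and Gja1, Panx3 and Cdh2 moved at both. Between day 0 and day 4, Gja1, Panx3, Cdh2 and Cdh13 were higher and Gjc1, Panx1 and Cdh11 were lower, that is 4 and 3 of 8, against 21.1% and 22.2% of 12710 genes. Between day 4 and day 7, Panx3 and Cdh2 were higher and Gja1 and Gjb2 lower, that is 2 and 2 of 8, against 13.8% and 24.6%. Between day 0 and day 7, 3 of the 8 were higher and 4 lower, against 16.9% and 25.4%. The 3 comparisons share libraries and are therefore not independent of each other.

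By mean RPKM, the order on day 0 was Cdh11, Gja1, Cdh2, Panx1, Gjc1, Panx3, Gjb2 and Cdh13, in which the libraries of Cdh2 and Panx1 overlapped, as did those of Gjc1 and Panx3. On day 4 Panx3 had moved to the third place, ahead of Cdh2, Panx1, Gjc1, Gjb2 and Cdh13, and no neighbours in the order overlapped. On day 7 Panx3 overlapped Gja1 in the second place, and Cdh13 lay above Gjb2 without overlap. With the M21 lengths Panx3 lay above Gja1 without overlap on day 7 and overlapped Cdh11, and Panx1 followed Gjc1 at each stage, overlapping it on day 0.

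Among the proteins that cadherins work with, 12 of 13 catenins and partners were tested, with 2 higher, 4 lower and a median log2 difference of 0.02, against 12.6% higher, 18.6% lower and a median of -0.11 over all genes tested. Ctnnb1, which encodes β-catenin, had the highest level, at 195 ± 31.3 RPKM on day 0 and 193 ± 8.73 RPKM on day 7 (SD, n = 3 each). Its log2 difference was 0.00, with a 95% confidence interval from -0.33 to 0.34 (limma adjusted p = 0.990). The largest fall was that of Nectin2, an adhesion molecule linked to actin through afadin, by 1.43 on the log2 CPM scale (limma adjusted p = 1.37e-09), from 14.3 ± 2.10 to 5.18 ± 0.373 RPKM (SD, n = 3 each). The largest rise was that of Pkp2, a plakophilin of desmosomes, by 0.69 (limma adjusted p = 0.0124), with a day 4 mean of 2.28 RPKM above that of either other stage.

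Of 6 partners of the gap junction plaque, 5 were tested, 0 were higher and 2 were lower, with a median log2 difference of -0.15 (all genes tested: 12.6% higher, 18.6% lower, median -0.11). The 2 were Ezr, which encodes the membrane linker ezrin, at -0.76 (limma adjusted p = 2.02e-04), and Dbn1, the actin-binding drebrin, at -0.75 (limma adjusted p = 9.98e-05). Dbn1 also had the highest level of the list, with 44.1 ± 4.16 RPKM on day 0, 29.5 ± 3.25 RPKM on day 4 and 26.1 ± 1.78 RPKM on day 7 (SD, n = 3 each).

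Because pannexin channels can release ATP, receptors for extracellular nucleotides and enzymes that break these nucleotides down were also read. A link between this list and the pannexins was not tested. Of 11 such genes, 6 were tested, 4 were higher and 0 were lower, with a median log2 difference of 1.21, beside 12.6% higher, 18.6% lower and a median of -0.11 over all genes tested. The 4 were Nt5e, P2rx7 (1.43), P2ry2 (1.18) and Entpd1 (1.24), with log2 differences in parentheses. P2rx7 and Entpd1 passed the filter at a mean of 1 CPM through their day 7 levels. On day 0 P2rx7 had 8, 9 and 8 reads and Entpd1 had 14, 4 and 2. The count and the median of this list therefore depend in part on the filter. All 6 macrophage markers were also higher at day 7, by log2 differences from 0.81 (Cd68) to 1.37 (Ptprc), and their part in this list was not tested. Nt5e, the ectoenzyme that makes adenosine from AMP, rose most, by 2.48 on the log2 CPM scale (limma adjusted p = 8.87e-16), from 2.17 ± 0.777 RPKM on day 0 to 9.48 ± 0.872 on day 4 and 11.8 ± 0.318 on day 7 (SD, n = 3 each). P2rx4, an ATP-gated channel, had the highest level and did not pass the test, at 11.1 ± 0.595 and 14.4 ± 1.00 RPKM (SD, n = 3 each; log2 difference 0.37, limma adjusted p = 0.0680).

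The genes most alike to each member were taken by the root mean square difference of the log2(CPM + 0.5) profiles over the 9 libraries, each centred on its own mean, among 12782 genes. For Panx3 these were Spns2 (0.298), Bmp3 (0.322) and Susd5 (0.335). For Panx1 they were Trim59 (0.0898), Mgea5 (0.110) and Paqr8 (0.111). Small distances for genes that move little are easier to reach than for genes that move far, so distances are not compared between members.

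The 3 connexins had separate neighbours. Those of Gja1 were Itgb3 (0.0961), Mapk6 (0.10) and S100a16 (0.101), those of Gjc1 were Eml4 (0.0473), Cyp2j6 (0.0559) and Tpx2 (0.0608), and those of Gjb2 were Csgalnact1 (0.186), Cacna1h (0.210) and Adgrg2 (0.229). For the cadherins, Cdh2 lay nearest to Rapgefl1 (0.0578), Kcnn1 (0.0599) and Dpm3 (0.0710), Cdh11 to Ssbp3 (0.0596), Vangl2 (0.0844) and Homer2 (0.0858), and Cdh13 to Parvb (0.183), C2cd4c (0.193) and 2500002B13Rik (0.201). No gene appeared for more than 1 member.

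Markers of other cell types were read beside these results. For comparison, 12.6% of all genes tested were called higher and 18.6% lower at day 7. Of the 6 endothelial markers, none passed the filter, their summed level was between 0.117 and 0.459 RPKM in all 9 libraries, and Tie1 and Emcn were at 0 throughout. The macrophage markers, all higher at day 7, had summed levels from 7.71 to 12.3 RPKM on day 0 and from 17.9 to 23.0 RPKM on day 7. Among them, Ptprc (15, 9 and 1 reads on day 0) and Fcer1g (7, 13 and 3) passed the filter through their day 7 levels. Of the 5 chondrocyte markers tested 1 was higher and 2 were lower, and their sum lay between 159 and 457 RPKM on day 0 and between 45.8 and 131 RPKM on day 7.

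The remaining lists were mixed or low. Of 6 smooth muscle and pericyte markers 3 were higher and 1 lower. Des, called higher, had 5, 4 and 1 reads on day 0 and passed the filter through its day 7 level. Rgs5, called lower, had 9, 12 and 9 reads on day 7 and passed it through its day 0 level. The sum of the 6 was from 1291 to 1460 RPKM on day 0 and from 1139 to 1256 RPKM on day 7. The epithelial sum was at most 0.176 RPKM on day 0 and at most 0.763 RPKM on day 7, and Cdh1 was the marker of that list that could be tested. Of 3 leptomeningeal markers tested 2 were higher and 1 lower. Among them, Aldh1a2, called higher, had 5, 5 and 1 reads on day 0 and passed the filter through its day 7 level. Of 2 Schwann cell markers 1 was lower, and of the skeletal muscle markers the 1 tested was higher. The part of these cell types in the results for the 8 genes and the lists was not tested.

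**Figure D4:**
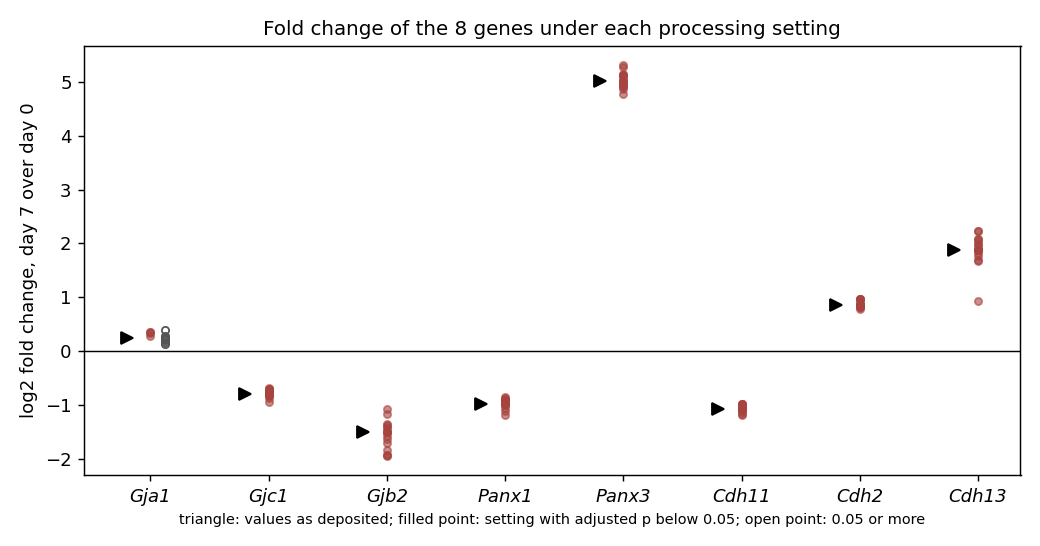
Log2 difference between day 7 and day 0 for each of the 8 genes under the reported setting and under each alternative (points). No gene changes direction. Gja1 is the gene whose call changes, and it spans 0.12 to 0.39.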

How the data were processed

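Total RNA depleted of ribosomal RNA was sequenced in 9 libraries, 3 per stage. The authors aligned reads to GRCm38 with STAR (2.0.4b per the labels), counted reads per gene with featureCounts (1.45 per the labels), and deposited CPM, which scale reads to the library total, and RPKM, which also divide by a gene length whose rule is not given in the sources used here. The strand setting is not given in the sources used here. All CPM values (100% in each library) came out as whole multiples of 1 read, so reads were recovered. For day 7 against day 0, limma 3.58.1 (R 4.3.3) with a mean-variance trend was fitted to log2(CPM + 0.5). Genes whose mean CPM over the 6 libraries was under 1 were left out, 11075 of them with reads. The prior carried 42.9 degrees of freedom and the residual 4, so the spread is taken largely from other genes of like level. edgeR 4.0.16, DESeq2 1.42.0 and voomWithQualityWeights were run on recovered reads as alternatives, beside pseudocounts of 0.1 and 1, filters at any reads and at a mean CPM of 5, the RPKM table, median-of-ratios scaling, robust variances, the replicate number as a block and each library left out. All 18 columns matched a sample, genes were joined by Ensembl identifier, and no 2 replicates were alike within sampling noise (chi-square over its degrees of freedom, 11.7 to 203). Sequences and positions came from GENCODE M21. Besides the 8 genes, the text names the largest rise, the largest fall and the highest level of each list, and the 3 most alike genes of each member, and 1 result for a gene outside the 8 is not reported here. Other named genes were chosen after their values were seen. The members and lists were chosen with earlier results of these data known.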

Additional observations from a re-analysis of the deposited data

How the results depend on the processing

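The 7 called genes kept direction and call in all alternatives in which they were tested (Gjb2 lay below the filter at a mean CPM of 5). Among all genes, 1602 were called higher and 2369 lower. The higher calls numbered 2843 with median-of-ratios scaling, 2818 with edgeR (and 2650 lower), 2581 with DESeq2 and 3148 with voomWithQualityWeights, which moved the share of higher calls from 40.3% to between 51.4% and 52.6% and the median of all genes by 0.10. The lower calls numbered 4418 without the ribosomal RNA rows, an alternative chosen after seeing the data, where the higher share was 28.2%. Leaving out 1 library gave 1527 (without day 0 replicate 2) to 4696 lower calls (without day 0 replicate 3, higher share 25.4%), with 1548 without day 7 replicate 2. Of the list genes that are not members, 7 were higher, against 3 at a mean CPM of at least 5 and 11 with voomWithQualityWeights. The replicate numbers did not meet the criterion for pairing the libraries (correlations of same numbers from -0.44 to -0.02, and 0 of 3 day 0 libraries closest to their own number), although Col2a1 and S100b had the same order of replicate numbers at all 3 stages, and a shared preparation was not tested. With the replicate block, 3 of the 8 genes were higher and 4 lower, as without it, and 1463 genes of all were higher and 1950 lower. The log2 ratios ranged from 5.94 to 6.31 for Panx3 to Panx1, from 0.93 to 1.15 for Gja1 to Gjc1 and from -2.01 to -1.88 for Cdh11 to Cdh2 when 1 library was left out, and did not move with the M21 lengths, an alternative also chosen after seeing the data. Depth limits Gjb2 and Cdh13 most, and counts cover counting error only, since PCR copies were not marked.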
